A study of Rattus norvegicus with 8 samples.

Results

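The 6 genes described here were followed in wounded rat skin: *Hif1a* (ENSRNOG00000008292), which encodes the oxygen-regulated subunit of hypoxia-inducible factor 1, and *Slc2a1* (ENSRNOG00000007284), *Hk2* (ENSRNOG00000006116), *Eno1* (ENSRNOG00000017895), *Pkm* (ENSRNOG00000011329) and *Ldha* (ENSRNOG00000013009), whose products carry glucose into the cell and through glycolysis to lactate. They were chosen by Ensembl gene ID, and all probes whose name on the array ends in 1 of the 6 IDs were taken. This gave 6 of the 19752 Ensembl IDs on the array, with 14 probes in 25 spots per array, and all 14 probes passed the filter on dim signals. The array names probes by Ensembl ID and the gene symbols came with the choice of IDs. That pairing was not checked, because 0 of the 47357 entries of the reference gene table carry an Ensembl ID.

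The samples were back skin of Long-Evans rat pups, hybridised in 1 colour to 8 arrays. Pups of the wounded group (n = 4) were incised over 3 mm at 3 days of age, and the wounded skin was collected 36 h afterwards. Control skin (n = 4) came from the matching site of pups that were not wounded, whose age at sampling the labels do not give separately. No sample had another treatment or a genetic change by the labels, and whether every sample is a different animal is not stated. The p-values therefore reflect only how much these 8 samples vary, part of which may be technical. The samples are whole skin. A change in the number of cells of a type and a change in RNA per cell therefore cannot be told apart. Markers of the skin's cell types could not be checked because their array IDs were not paired with symbols.

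The scanner software found signal for 43.5% to 51.4% of the probes of an array, over a median background of 41 to 44 intensity units. None of the spots of the 6 genes was marked bad on any array (0 in control and 0 in wounded arrays), and the brightest of their spots read 13679, well short of the brightest spot on each array (27951 to 49584). Values below are log2 of background-corrected, quantile-normalized intensity, called log2 signal. A probe's signal also depends on its own sequence, so levels were compared between samples for each probe and never between genes. By array number all controls come before all wounded samples, so an effect of array order and one of wounding cannot be told apart.

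Hypoxia-inducible factor 1 is a transcription factor whose alpha subunit is made continually and destroyed when oxygen is plentiful, since prolyl hydroxylases mark it for the von Hippel-Lindau ubiquitin ligase. When oxygen is short it accumulates, pairs with its beta subunit and binds hypoxia response elements, whose core is ACGTG or GCGTG. Among its known targets are the glucose transporter and most enzymes of glycolysis, and neutrophils, macrophages and migrating keratinocytes of wounds are known to rely on glycolysis. The arrays measure transcripts, so they do not show the amount of the factor's protein.

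The 250 bases before the gene start were available from RefSeq (GRCr8) for each of the 6 genes, with 2 starts for *Eno1*, and were searched on both strands for ACGTG and GCGTG. Overlapping matches were counted separately, so the palindrome CACGTG counts as 2. The windows of *Hif1a*, *Slc2a1* and *Ldha* are shown because they held the most matches, with the matched letters in capitals. They lie at chr6:98359648-98359897, chr5:138002272-138002521 and chr1:106507842-106508091, all on the plus strand.
Hif1a: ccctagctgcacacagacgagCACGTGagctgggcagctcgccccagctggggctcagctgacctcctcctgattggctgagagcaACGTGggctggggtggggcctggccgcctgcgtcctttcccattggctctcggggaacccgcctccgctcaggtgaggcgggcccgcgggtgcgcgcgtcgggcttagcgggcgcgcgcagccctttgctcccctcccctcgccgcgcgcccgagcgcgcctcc
Slc2a1: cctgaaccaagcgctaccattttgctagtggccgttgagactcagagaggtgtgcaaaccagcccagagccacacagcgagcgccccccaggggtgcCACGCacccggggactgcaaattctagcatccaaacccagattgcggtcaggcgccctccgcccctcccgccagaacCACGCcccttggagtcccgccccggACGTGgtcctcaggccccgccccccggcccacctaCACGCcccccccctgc
Ldha: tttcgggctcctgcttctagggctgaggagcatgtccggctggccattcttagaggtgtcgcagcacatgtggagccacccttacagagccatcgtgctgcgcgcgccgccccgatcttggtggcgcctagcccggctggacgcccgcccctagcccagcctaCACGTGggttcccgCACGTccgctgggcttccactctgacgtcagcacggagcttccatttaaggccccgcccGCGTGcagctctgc
The *Slc2a1* and *Ldha* windows held 4 matches each and that of *Hif1a* held 3. Each *Eno1* window held 1 match, and those of *Hk2* and *Pkm* held 0 in these 250 bases. Of all 33465 promoter windows of this length, 36.7% held at least 1 match and 16.03% at least 2, so single matches are common. The 3 windows shown are also rich in G and C, at 73.6%, 68.4% and 66.4%, against a median of 51.2% over all windows. A match to 5 letters is a description of the sequence and not a binding site, and no binding was measured here.

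Transcripts of 5 of the 6 genes were higher in wounded skin. *Slc2a1* rose about 4-fold, *Hif1a* 2.42-fold, *Pkm* 2.30-fold, *Eno1* 1.81-fold and *Hk2* 1.72-fold by the brightest probe of each gene. *Ldha* was the exception by its brightest probe, at 1.23-fold with no call, while its other probe, printed 12 times on each array, rose 1.70-fold. None of the 6 was lower. In the limma test with Benjamini-Hochberg adjustment over 12769 features, 17.7% of all features were called at the threshold of 0.05, with 8.01% higher and 9.65% lower. All 4 wounded samples were above all 4 controls for 5 of the 6 genes, against 8.78% of features. The median log2 fold change was 1.03 over the 6 genes and -0.05 over all features.

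Over single probes, 12 of 14 were called higher, where 8.09% of all 19444 probes were (8.53% were called lower), and 14 of 14 had a log2 fold change above 0. The 4 wounded values lay above all 4 control values for 10 of the 14 probes, against 9% of all probes. Probes of one gene read the same samples and so are not independent.

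**Figure D1:**
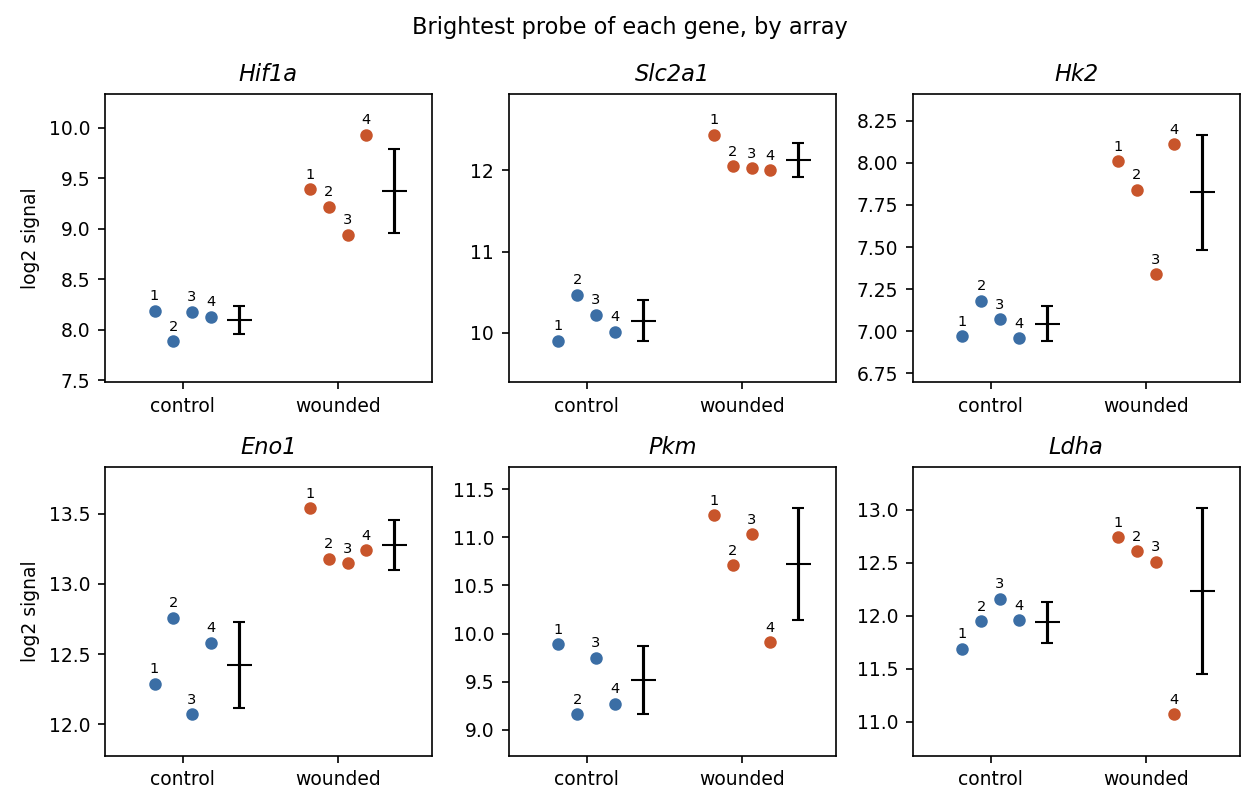
Log2 signal of the brightest probe of each gene on each array (y axis), by group, with the sample number above each point and the mean with SD beside each group (n = 4). The wounded values lie above the control values for every gene but Ldha, where wounded 4, at 11.07, lies below all control samples.

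*Hif1a*, the oxygen sensor's effector, was measured with 2 probes, printed in blocks 2 and 11 of the slide, which lie in the same range of blocks in the account of print position given later. By the brighter one its log2 signal was 8.19, 7.89, 8.18 and 8.13 in control samples 1 to 4 and 9.39, 9.22, 8.94 and 9.93 in wounded samples 1 to 4. The groups did not overlap, and wounded 4 was the highest. The log2 fold change was 1.27 ± 0.22 (SE), with a 95% interval of 0.82 to 1.73 and a limma adjusted p of 0.000333. The second probe gave 8.41, 7.88, 7.57 and 7.90 in controls and 8.82, 9.32, 8.45 and 9.87 in wounded skin, again without overlap. Its log2 fold change was 1.17 ± 0.27 (SE; limma adjusted p = 0.00524 over all probes). The net intensity of the first probe was 119 to 290 units in controls and 419 to 885 in wounded skin, so *Hif1a* was well above background in both groups.

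*Slc2a1* encodes GLUT1, the main glucose transporter of keratinocytes and of many proliferating or activated cells. It had the largest change of the 6 genes, and only 1.08% of all features had a larger log2 fold change. Its brighter probe read 9.90, 10.47, 10.22 and 10.01 in control skin and 12.44, 12.05, 12.03 and 12 in wounded skin, so the groups were far apart, with wounded 1 the highest. The log2 fold change was 1.98 ± 0.20 (SE), or 3.95-fold, with a 95% interval of 1.55 to 2.41 and a limma adjusted p of 1.33e-06. The dimmer probe read 7.30 to 7.72 in controls and 9.03 to 10.30 in wounded skin. It gave the same size in this processing, 1.98 ± 0.26 (SE), with a limma adjusted p of 2.27e-05 over all probes. Its net intensity was only 77 to 190 units in controls, so the offset used in the background correction makes its change smaller. In the authors' deposited table, which has no such offset, it gave 2.495 ± 0.30 (SE). The brighter probe gave 2.19 ± 0.21 (SE) there, so the equal sizes hold only for the processing reported here.

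*Hk2* encodes the inducible hexokinase that traps glucose as glucose 6-phosphate, the first step of glycolysis. Its brighter probe read 6.97, 7.18, 7.07 and 6.96 in controls and 8.01, 7.84, 7.34 and 8.11 in wounded skin, which did not overlap although wounded 3 came close. *Hk2* rose by 0.78 ± 0.19 (SE; limma adjusted p = 0.00622). Its net intensity was only 58 to 86 units in controls, so the offset of 50 used in the background correction pulls this change toward 0. In the authors' deposited table, which has no such offset, the same probe gave 1.20 ± 0.27 (SE), a limma adjusted p of 0.00605 over the probes of that table. The second probe was near background, found on 2 of 4 control and 3 of 4 wounded arrays. Its values of 5.95 to 6.32 in controls and 6.25 to 6.48 in wounded skin overlapped, and its log2 fold change of 0.21 was not called (limma adjusted p = 0.145 over all probes). With the mean of both probes the change of *Hk2* was 0.50.

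*Eno1* encodes enolase 1, which makes phosphoenolpyruvate. Its brighter probe read 12.29, 12.76, 12.07 and 12.58 in control skin and 13.54, 13.18, 13.15 and 13.24 in wounded skin, with no overlap. *Eno1* rose by 0.85 ± 0.20 on the log2 scale (SE), or 1.81-fold, with a 95% interval of 0.43 to 1.28 and a limma adjusted p of 0.00577. The second probe gave the same estimate, 0.85 ± 0.24 (SE; limma adjusted p = 0.0192 over all probes), but its groups overlapped: controls ran from 10.49 to 11.17, and wounded 4, at 11.09, lay inside that range while the other wounded samples read 11.85 to 11.99. The call of this probe was lost when any of controls 1 and 4 or wounded 1, 2 and 3 was left out, with adjusted p-values of 0.0532 to 0.0570 in limma, although its change stayed between 0.73 and 1.07 in all 8 such fits.

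*Pkm* encodes the pyruvate kinase of most tissues, the enzyme of the last step to pyruvate, which is made as the spliced forms M1 and M2. The file gives no probe sequences, so which form each of its 4 probes reads was not checked. By the brightest probe the log2 signal was 9.89, 9.16, 9.75 and 9.27 in controls and 11.23, 10.71, 11.03 and 9.91 in wounded skin. The groups did not overlap, but wounded 4 was barely above control 1. *Pkm* rose by 1.20 ± 0.27 (SE; limma adjusted p = 0.00374). The other 3 probes were also called, with log2 fold changes of 0.96 ± 0.25, 1.86 ± 0.36 and 1.65 ± 0.28 (SE; limma adjusted p of 0.0118, 0.00115 and 0.000348 over all probes).

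The 4 *Pkm* probes fell into 2 pairs by the rank of wounded 4 among the wounded samples. In R000179_01 and Rn30026849, wounded 4 was the lowest wounded sample, at 9.91 and 9.75. In ENSRNOG00000011329 and Rn30022392 wounded 4 was the highest, at 10.53 and 9.02. Control 2 was the lowest control for these, at 7.04 and 6.37, but also for R000179_01 of the other pair, at 9.16. Both probes of the latter pair sit in print block 9 of the slide, and those of the former in blocks 38 and 47.

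*Ldha* encodes the lactate dehydrogenase subunit that turns pyruvate into lactate. Its brightest probe, printed once per array, read 11.69, 11.95, 12.16 and 11.96 in controls and 12.74, 12.61, 12.51 and 11.07 in wounded skin. Thus 3 wounded samples were above all controls and wounded 4 was below all of them. The log2 fold change was 0.29 ± 0.29 (SE), with a 95% interval of -0.32 to 0.91, and was not called (limma adjusted p = 0.538). Without wounded 4 it was 0.68 ± 0.19 (SE), called at a limma adjusted p of 0.0213, and then all 6 genes were called higher, where 7.55% of all features were. Without wounded 1 it was 0.13.

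The other *Ldha* probe, R000528_01, was printed in 12 spots spread over the slide, so the error of a single spot could be measured. The mean of the 12 spots was 11.39, 11.26, 11.28 and 11.21 in controls and 12.24, 11.94, 11.98 and 12.05 in wounded skin. The groups were far apart relative to their spread, and wounded 4 was the second highest wounded sample. The rise was 0.77 ± 0.19 (SE), with a 95% interval of 0.36 to 1.17 and a limma adjusted p of 0.00901 over all probes. Leaving out each sample in turn gave 0.71 to 0.80, with the call kept in all 8 fits.

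Single spots of that probe varied more. All 12 spots were higher in wounded skin on average, but their log2 fold changes ran from 0.26 to 1.4, and for only 6 of the 12 did the groups not overlap. Within 1 array the 12 spots had an SD of 0.55 to 0.88. Once each spot's own mean and each array's own mean were removed, the spots still scattered by 0.39 (SD). That would amount to 0.11 for a mean of 12 spots if their errors were independent, but the changes differed by print block. The array means themselves had an SD of 0.07 in controls and 0.13 in wounded samples (n = 4 each). The 8 spots in print blocks 4 to 36 gave changes of 0.75 to 1.4, while the 4 spots in blocks 39 to 47 gave 0.26 to 0.46. The brightest *Ldha* probe, with its change of 0.29, is printed in block 45.

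**Figure D2:**
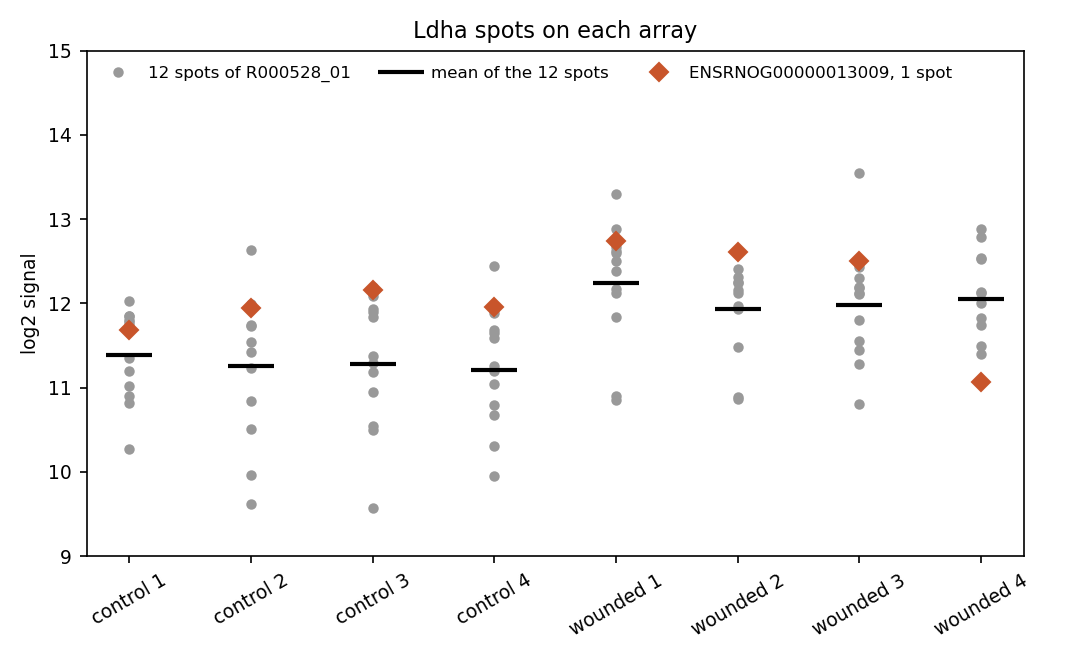
Log2 signal of Ldha on each array (y axis), with the 12 spots of probe R000528_01 as grey points, their mean as a black bar and the single spot of probe ENSRNOG00000013009 as a diamond. On 7 arrays the diamond lies above the mean of the 12 spots, and on wounded 4 it lies below it, at 11.07 against 12.05.

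Signals across the whole array also differed by print position. Each array is printed in 48 blocks, and for each block the median deviation from the mean of the 8 arrays was taken over the 195 to 401 spots per block that were found on every array. On wounded 4 this median averaged 0.30 over blocks 1 to 16, 0.04 over blocks 17 to 32 and -0.37 over blocks 33 to 48. The other arrays varied less between these 3 ranges of blocks, with control 2, at -0.16, 0.02 and 0.19, and control 3, at -0.12, 0.03 and 0.19, sloping the opposite way. Control 4, at -0.08, 0.04 and 0.12, and wounded 1, at -0.10, -0.03 and 0.02, also rose, less steeply. Control 1 was at 0.17 over the first 16 blocks and -0.06 over the last 16.

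The rank of wounded 4 among the wounded samples differed by position over the 13 single-spot probes of the 6 genes. Wounded 4 was the highest wounded sample for 4 of 4 such probes in blocks 1 to 16, which are both *Hif1a* probes and a pair of *Pkm* probes. It was the lowest for 6 of 6 in blocks 33 to 48, which are both *Slc2a1* probes, 1 of *Eno1*, 2 of *Pkm* and 1 of *Ldha*. For the 3 probes in blocks 17 to 32 it was the highest in 1 and the lowest in 0. With block medians removed, as described next, it was the highest for 2 of 4 in blocks 1 to 16 and the lowest for 1. In blocks 17 to 32 it was then the lowest for 2 of 3 and the highest for 1. It was still the lowest for 4 of 6 in blocks 33 to 48.

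**Figure D3:**
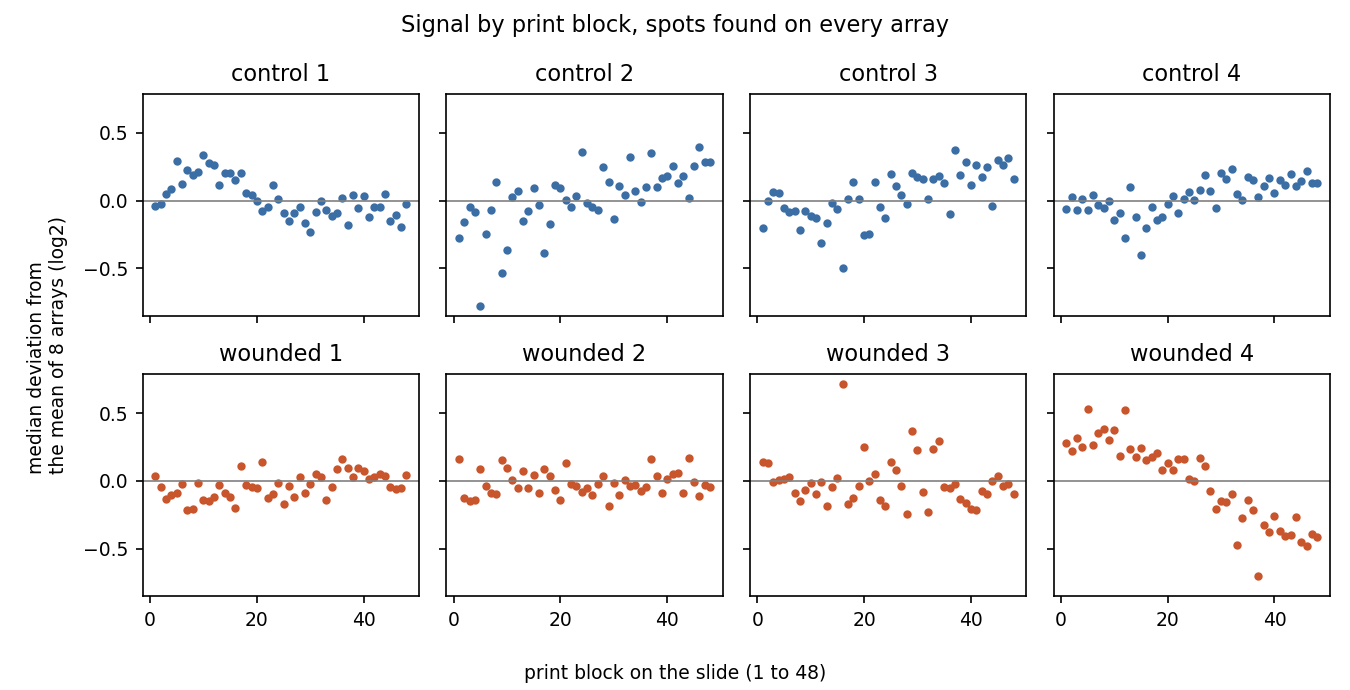
Median deviation of each print block from the mean of the 8 arrays (y axis, log2) by block number (x axis), 1 panel per array, over spots found on every array. Wounded 4 falls from a mean of 0.30 over the first 16 blocks to -0.37 over the last 16. Control 2, control 3 and, less steeply, control 4 and wounded 1 rise across the slide.

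The comparison was therefore repeated with each array's block medians subtracted, a setting chosen after the slope had been seen. The slope was measured without regard to group, on the spots of a block found on every array, and was subtracted from all its spots. The correction also makes the median deviation of those measured spots equal between arrays in every block. As before, 12 of the 14 probes were called higher, while the share of all probes rose from 8.09% to 10.7%. The groups did not overlap for 12 of the 14, where it had been 10, and for 12.2% of all probes, where it had been 9%. Among features 11.1% were called higher, up from 8.01%, and 5 of the 6 genes were, as before.

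The changes given by probes of one gene came closer to each other for *Hif1a*, *Pkm* and *Ldha* and moved apart for *Slc2a1*, *Eno1* and *Hk2*. The 4 *Pkm* probes had spanned 0.96 to 1.86 and now spanned 1.22 to 1.66, and none of these 4 overlapped between groups. *Hif1a* gave 1.19 and 1.21, and the second *Eno1* probe no longer overlapped, at 1.12 ± 0.17 (SE; limma adjusted p = 0.000164 over all probes). *Slc2a1* gave 2.35 and 2.18, or 5.09-fold and 4.53-fold, so its rise was larger than without the correction. *Hk2* gave 0.92 by its brighter probe and 0.26, still not called (limma adjusted p = 0.0970 over all probes), by its dim one.

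For *Ldha*, the 12 spots now gave changes of 0.61 to 1.20, and 11 of them did not overlap between groups. The scatter of single spots fell from 0.39 to 0.24 (SD). Their mean rose by 0.84 ± 0.14 (SE; limma adjusted p = 0.000331 over all probes). The single-spot probe gave 0.55 ± 0.22 (SE) and remained short of a call (limma adjusted p = 0.0881), and wounded 4, at 11.53 against 12.48 to 12.78 in the other wounded samples, was still low and still below all controls (11.69 to 11.86). The cause of the low value of wounded 4 was not tested.

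**Figure D4:**
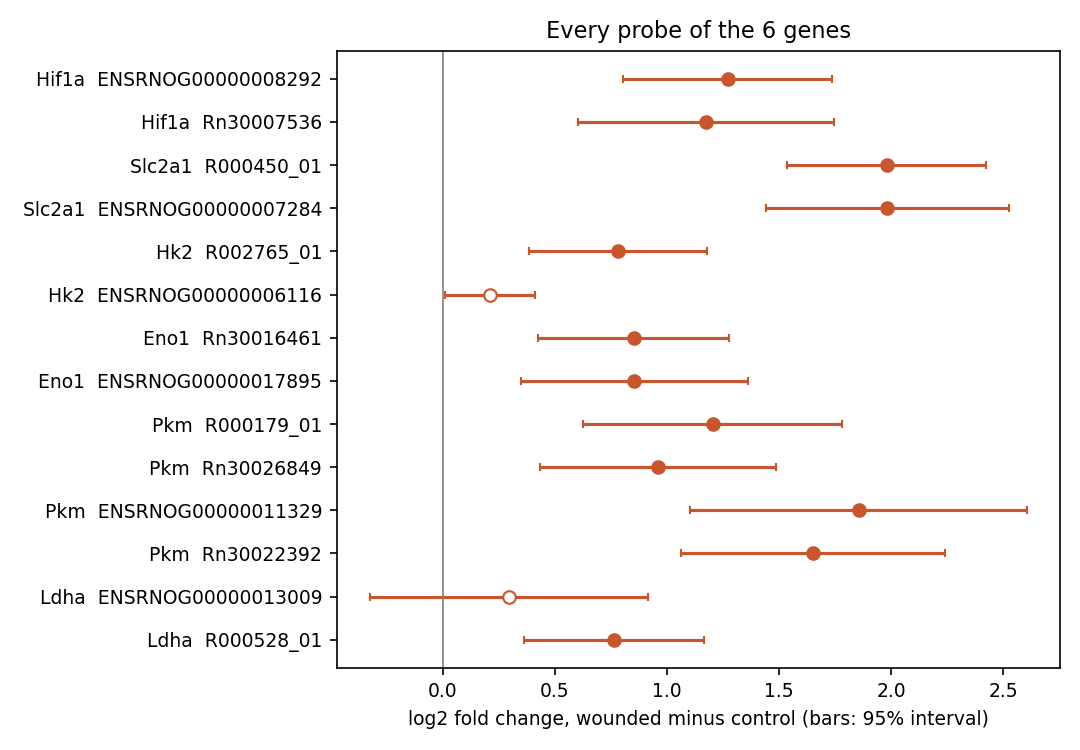
Log2 fold change of each of the 14 probes, wounded minus control (x axis), with 95% intervals from limma, before removal of block medians. Filled circles are called at an adjusted p of at most 0.05 over all probes; the open ones are the dim Hk2 probe at 0.21 and the single-spot Ldha probe at 0.29.

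Whether one gene changed more than another was tested on the difference of their log2 values within each array, over all 15 pairs, with a 2-sided exact permutation test. The smallest p that 4 against 4 samples allow is 0.0286. After adjustment a pair can therefore pass 0.05 only if most pairs reach that p. Not passing thus does not show that 2 changes are equal. By the brightest probes, *Slc2a1* exceeded *Hk2* by 1.20 ± 0.19, *Eno1* by 1.13 ± 0.15 and *Ldha* by 1.69 ± 0.36 (SE, log2), and *Hif1a* exceeded *Hk2* by 0.49 ± 0.16. Each of these 4 differences reached that smallest p, and 0 of 15 passed after adjustment over the pairs (exact permutation, adjusted p = 0.107 for each of the 4). With the mean of each gene's probes, *Hif1a* against *Hk2* no longer reached it, at 0.73 ± 0.23 (SE; exact permutation p = 0.0571), while *Pkm* against *Ldha* did, at 0.89 ± 0.26 (SE). With block medians removed, *Hif1a* exceeded *Hk2* by only 0.26 ± 0.09 (SE). In that setting 6 of the 15 pairs reached the smallest p, and 0 passed after adjustment (exact permutation, smallest adjusted p = 0.0714). The other 5 were *Slc2a1* against *Hif1a*, *Hk2*, *Eno1* and *Ldha*, and *Pkm* against *Ldha*. By the brightest probes without that removal, *Hif1a* and *Pkm* differed by 0.07 ± 0.49 (SE), with an exact permutation adjusted p of 0.943. With block medians removed, *Hif1a* minus *Pkm* was -0.23 ± 0.41 (SE), with an exact permutation adjusted p of 0.673. Errors of that size leave room for a difference in either direction. Between probes of one gene, 0 of 11 pairs differed in change at an unadjusted exact permutation p of 0.05 or less. That count was 1 with block medians removed, the *Hk2* pair, whose difference of -0.67 had an exact permutation p of 0.0286 and 0.314 after adjustment over the 11 pairs.

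Likeness of pattern was measured as the root mean square difference of mean-centred log2 signals over the 8 samples, between each gene and 12754 other features. The nearest feature to *Hif1a* was ENSRNOG00000019996, at a distance of 0.12 and with a log2 fold change of 1.15. The nearest to *Slc2a1* was ENSRNOG00000020465, at 0.14 and with 1.88. The nearest of the 6 genes to *Hif1a* was *Hk2*, at 0.31, and 115 features lay nearer than that. The nearest to *Ldha* was *Pkm*, at 0.56, with 5336 features nearer. These distances used the brightest probes without removal of block medians, so they also carry differences of print position. For *Ldha* that probe is the single-spot one, which was low in wounded 4.

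**Figure D5:**
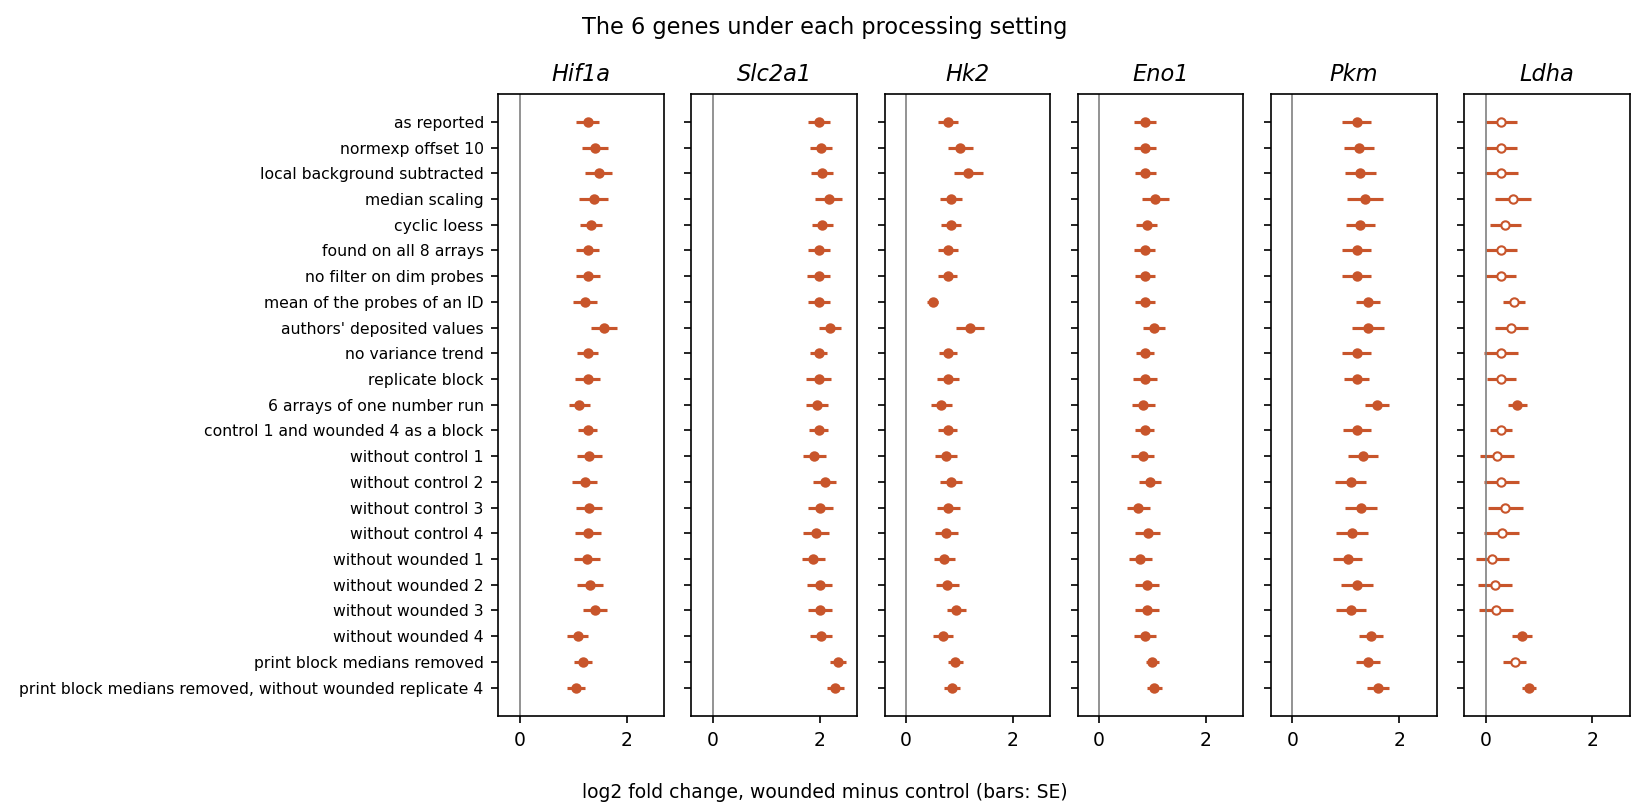
Log2 fold change with SE (x axis) of the 6 genes under each processing setting and with each sample left out (rows). Filled circles are called at a limma adjusted p of at most 0.05. Slc2a1 stays between 1.88 and 2.35, the other called genes keep their call in every row, and Ldha is called in the 3 rows without wounded 4.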

How the data were processed

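Per the labels' protocols, cRNA carrying biotin was made from total RNA and put on Rat MI-Ready arrays. The arrays were scanned at 635 nm with a photomultiplier gain of 650 on a GenePix 4000B scanner and quantified in GenePix Pro 4.1.1.4 with normalization off, per the file headers. The scanner files deposited by the authors hold spot and local background intensity. A deposited table gives the authors' log2 values (16198 rows naming 16079 probes, column medians 6.98 to 7.06). It equals log2 of the background-subtracted median up to an array constant (99.9% to 100% of probes within 0.011), which settles scale and direction. The choice of its probes is not described in these sources.

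Values were computed with limma 3.58.1 in R 4.3.3. Median intensities were corrected with normexp and an offset of 50. Of 40320 spots, 1240 controls and blanks were left out, as were 65 readings marked bad over the 8 arrays. After quantile normalization, repeat spots were averaged per probe. Probes found on at least 4 of 8 arrays were kept (19444 of 38948). The brightest probe stood for an Ensembl ID, giving 12769 features. Groups came from the labels and were compared with lmFit and eBayes (variance trend, 2-sided), with Benjamini-Hochberg adjustment over all features (or all probes where stated), at a threshold of 0.05. The offset understates changes of dim probes. The number of arrays limits the precision.

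The genes and settings were chosen with earlier results of these data known. All 6 genes and every probe of each are named. A list of other glycolysis and hypoxia genes, and one of cell type markers, could not be matched to array IDs and were not used. The steps were tested on simulated arrays. Alternatives covered background correction, scaling, filter, probe choice, the authors' values, variance model, blocks, array numbers, print blocks and leaving out each sample.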

Additional observations from a re-analysis of the deposited data

Results flagged for a closer look

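Among 28 sets of 4 values, the 14 probes in each of 2 groups, 3 held a sample far from the other 3, and chance sets apart about 1 in 20 such sets. The single-spot *Ldha* probe was low in wounded 4, at 11.07, while the 3 others lay between 12.51 and 12.74. The second *Eno1* probe read 11.09 in wounded 4, against 11.85 to 11.99. The brighter *Slc2a1* probe read 12.44 in wounded 1, against 12 to 12.05. All 3 probes are printed in the last 16 blocks of the slide (45, 41 and 46), where wounded 4 was low over the spots found on every array. With block medians removed, wounded 4 read 11.53 for *Ldha*, 11.45 for *Eno1* and 12.48 for *Slc2a1*, the last close to the 12.51 of wounded 1.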

How the results depend on the processing

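In 20 alternatives, 196 of 200 values kept both their sign and their call, or, for counts, stayed within 1.5 times the reported one, and 0 reversed. For *Ldha*, 2 settings without wounded 4 turned no call into a call: 0.60 on the 6 arrays whose numbers form 1 run (limma adjusted p = 0.0387) and 0.68 without wounded 4. Its other settings with all 8 samples gave 0.29 to 0.55. With block medians removed and wounded 4 left out, a setting added after the data had been seen, it was 0.82. Requiring probes found on all 8 arrays, which tests fewer features, left 625 features higher, and median scaling left 761 lower. The split of calls also moved with scaling: 45.4% of all calls were higher as reported, 55.8% with median scaling. The median of all features was -0.05 as reported and -0.002 with median scaling, and each of the 6 genes was above it in both. Leaving out 1 sample in turn gave log2 fold changes of 1.08 to 1.41 for *Hif1a*, 1.88 to 2.09 for *Slc2a1*, 0.69 to 0.94 for *Hk2*, 0.74 to 0.95 for *Eno1*, 1.03 to 1.47 for *Pkm* and 0.13 to 0.68 for *Ldha*. It gave 843 to 1055 features higher and 882 to 1324 lower, with 5 to 6 of the 6 genes higher and 0 lower. *Hk2* ranged from 0.50 with the mean of its probes to 1.20 with the authors' values, called in both. Taking sample number as a replicate block cannot change the log2 fold changes in this balanced design, only their errors. With it 5 of the 6 genes were called, 987 features being higher and 1079 lower. Deviations of samples sharing a number correlated at -0.28 to -0.01, and at -0.13 to -0.03 with block medians removed. None was positive, but 4 such pairs are too few to exclude a pairing of samples. Dim probes limit what can be said of *Hk2*, and cross-hybridisation with related genes was not checked, since probe sequences were not used here.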

Other observations

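With block medians removed, the median standard error over all 12769 features fell from 0.184 to 0.138, and the number called went from 1023 higher and 1232 lower to 1413 higher and 1203 lower. The correction was chosen after the data had been seen. Across features, which are not independent replicates, the deviations of control 1 and wounded 4 from their group means correlated at 0.40 as reported and at 0.08 with block medians removed. The span between the lowest and the highest block median was 1.23 on wounded 4, 1.17 on control 2 and 0.35 on wounded 2. Block 16 of wounded 3 stood at 0.72. One of the 12 *Ldha* spots is printed in that block and read 13.55 on wounded 3, against 12.25 to 12.79 on the other wounded arrays.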
